A study of Mus musculus with 2 samples.

Results

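Heat shock proteins and DnaJ proteins are the chaperones and cochaperones that keep other proteins folded. The 74 genes described here are all protein-coding mouse genes on chromosomes 1 to 19 and X whose symbol starts with Hsp, Dnaja, Dnajb or Dnajc, apart from the proteoglycan gene Hspg2. They are 74 of 21755 coding genes in the annotation. The rule used names alone and no measured value, though it was set with earlier results of these data known. For each gene, the highest DNase-seq peak that came within 1 kb of any annotated start site was taken as its promoter peak, and peaks were also counted over the gene and its flanking 10 kb. The members were divided, from what is known of the genes, into 10 heat-inducible, 6 ER-stress-inducible, 21 constitutive, 12 tissue-restricted (testis or muscle) and 25 other members.

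DNase-seq finds open chromatin from the positions at which DNase I cuts the DNA of nuclei. The tissue was the cortex of the left cerebral hemisphere from 2 males of the strain B6CASTF1/J, the first-generation cross of C57BL/6J and CAST/EiJ mice, at an age of 36 days. Each mouse gave 1 library, called replicate 1 and replicate 2. No stress, drug or genetic change is named in the labels, so inducible genes were seen here in unstressed tissue, as far as the labels say. The labels give both mice the same donor name but number them as separate males. With 1 group of 2 mice there was no test and no p-value, and errors are the SD over the mice.

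HSP70 proteins bind and release unfolded protein in a cycle driven by ATP. DnaJ proteins (HSP40) bring substrates to HSP70 and stimulate its ATPase, and nucleotide exchange factors such as the HSP110 proteins reset it. In the heat shock response, the factor HSF1 binds heat shock elements, which are alternating inverted GAA units, and raises transcription of the inducible genes. In the unfolded protein response of the endoplasmic reticulum (ER), factors including ATF6 act on ER stress elements, which join a CCAAT box to a CCACG box. Cognate members such as Hspa8 are made at high levels in unstressed cells, neurons included.

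The promoter sequences that carry these elements are shown because the stress responses act through them and the lists are compared by them below. All are the C57BL/6J reference (RefSeq sequence, GRCm38.p6), written 5′ to 3′ along the gene's strand, so they leave out any CAST/EiJ difference. Capitals mark the element. For Hspa1a (chr17:34972157-34972316, minus strand) the capitals are overlapping 3-unit heat shock elements with 1 letter changed. Hspe1 (chr1:55088053-55088082, plus), Hsp90aa1 (chr12:110696379-110696407, minus), Hsph1 (chr5:149636280-149636308, minus), Dnaja1 (chr4:40722526-40722554, plus), Hspa8 (chr9:40801055-40801083 and chr9:40801213-40801241, plus) and Dnajb6 (chr5:29735844-29735872, plus) held exact 3-unit elements, which is GAA, any 2 bases, TTC, any 2 bases and GAA, or the same with TTC outside and GAA within. Dnajb1 (chr8:83608213-83608241, plus) and Hspb1 (chr5:135887794-135887822, plus) held one with 1 letter changed in the stretch shown, and Dnajb1 had a further such match that is not shown. Hsp90b1 (chr10:86705510-86705669, minus), Dnajc3 (chr14:118937816-118937975, plus) and Hspa5 (chr2:34772020-34772048, plus) held the ER stress element, CCAAT, any 9 bases and CCACG, which at Hsp90b1 occurs once on each strand.
Hspa1a: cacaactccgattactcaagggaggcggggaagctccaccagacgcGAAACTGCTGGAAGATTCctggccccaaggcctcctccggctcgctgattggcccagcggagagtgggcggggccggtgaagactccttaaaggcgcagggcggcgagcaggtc
Hspe1: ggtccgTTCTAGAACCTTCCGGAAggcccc
Hsp90aa1: gagggttcTTCCGGAAGGTTCcggaggct
Hsph1: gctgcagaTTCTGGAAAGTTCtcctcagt
Dnaja1: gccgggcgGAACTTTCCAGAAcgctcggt
Dnajb1: gaggggcgGAAGGTTCTGGAGggctggcg
Hspb1: caacaagaGAAGTTTCCAGATgggggcag
Hspa8, first: gcgagcgtGAAAGTTCCAGAAcgccgcgg
Hspa8, second: cggcacccTTCTGGAAGGTTCtaagacag
Dnajb6: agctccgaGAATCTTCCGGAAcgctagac
Hsp90b1: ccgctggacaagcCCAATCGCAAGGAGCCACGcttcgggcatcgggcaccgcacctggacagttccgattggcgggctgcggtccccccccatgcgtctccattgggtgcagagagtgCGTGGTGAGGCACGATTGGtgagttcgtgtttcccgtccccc
Dnajc3: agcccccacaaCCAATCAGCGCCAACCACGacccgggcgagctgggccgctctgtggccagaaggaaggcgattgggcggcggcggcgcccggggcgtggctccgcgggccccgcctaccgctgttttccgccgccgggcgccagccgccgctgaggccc
Hspa5: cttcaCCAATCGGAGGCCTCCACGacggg

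Replicate 1 had 72021 peaks and replicate 2 had 59150, with 288172 and 224558 footprints, which are short stretches inside open chromatin that DNase I cut less. Heights are the deposited signal of a peak, read as depth-scaled cut counts. On that reading the libraries held 160.1 and 145.4 M cuts. The median over all peaks was 1.18 and 0.963. Replicate 1 was the higher library at most promoters, and any difference in height between the mice depends on the same reading. Of 6 excitatory neuron markers, all had a promoter peak in both mice, whereas 0 of 5 microglia markers and 0 of 3 liver markers had one in either mouse. Of 3 muscle markers, 1 had a promoter peak in both mice, with a height of 1.60 and 1.04. Over 32 markers of cortical cell types, 15 had a promoter peak in replicate 1 and 11 in replicate 2. In bulk tissue, fewer cells of a type and a less open site in each cell cannot be told apart.

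Most heat shock protein and DnaJ genes had an open promoter in unstressed cortex. A promoter peak was present at 64 of 74 members in replicate 1 and 65 of 74 in replicate 2, or 87.2% ± 0.956 (SD over the mice, n = 2). Over all coding genes the shares were 63.5% in replicate 1 and 58.4% in replicate 2. The peak was present in both mice at 64 members, beside 57.7% of all coding genes, and in neither at 9 members, beside 35.7%. Dnajc5b, a testis relative of the cysteine string protein gene Dnajc5, was the 1 member with a peak in a single mouse, at a height of 0.729 in replicate 2. Over all coding genes 6.61% had a peak in a single mouse.

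The members' median promoter height was also above that of all coding genes. Among genes with a peak, the members had a median of 6.77 in replicate 1 and 3.73 in replicate 2, which is 5.25 ± 2.15 (SD, n = 2 mice), against 4.403 and 2.65 over all coding genes. Of members with a peak, 14 in replicate 1 and 8 in replicate 2 reached the 95th percentile of coding gene promoters, which lay at 9.80 and 7.97. Each promoter peak of a member held at least 1 whole footprint, beside 98.6% and 98% of all coding genes with a peak. Footprints covered 26.7% and 30.2% of the bases in the members' promoter peaks, against 21.9% and 27.1% over all coding genes.

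**Figure D1:**
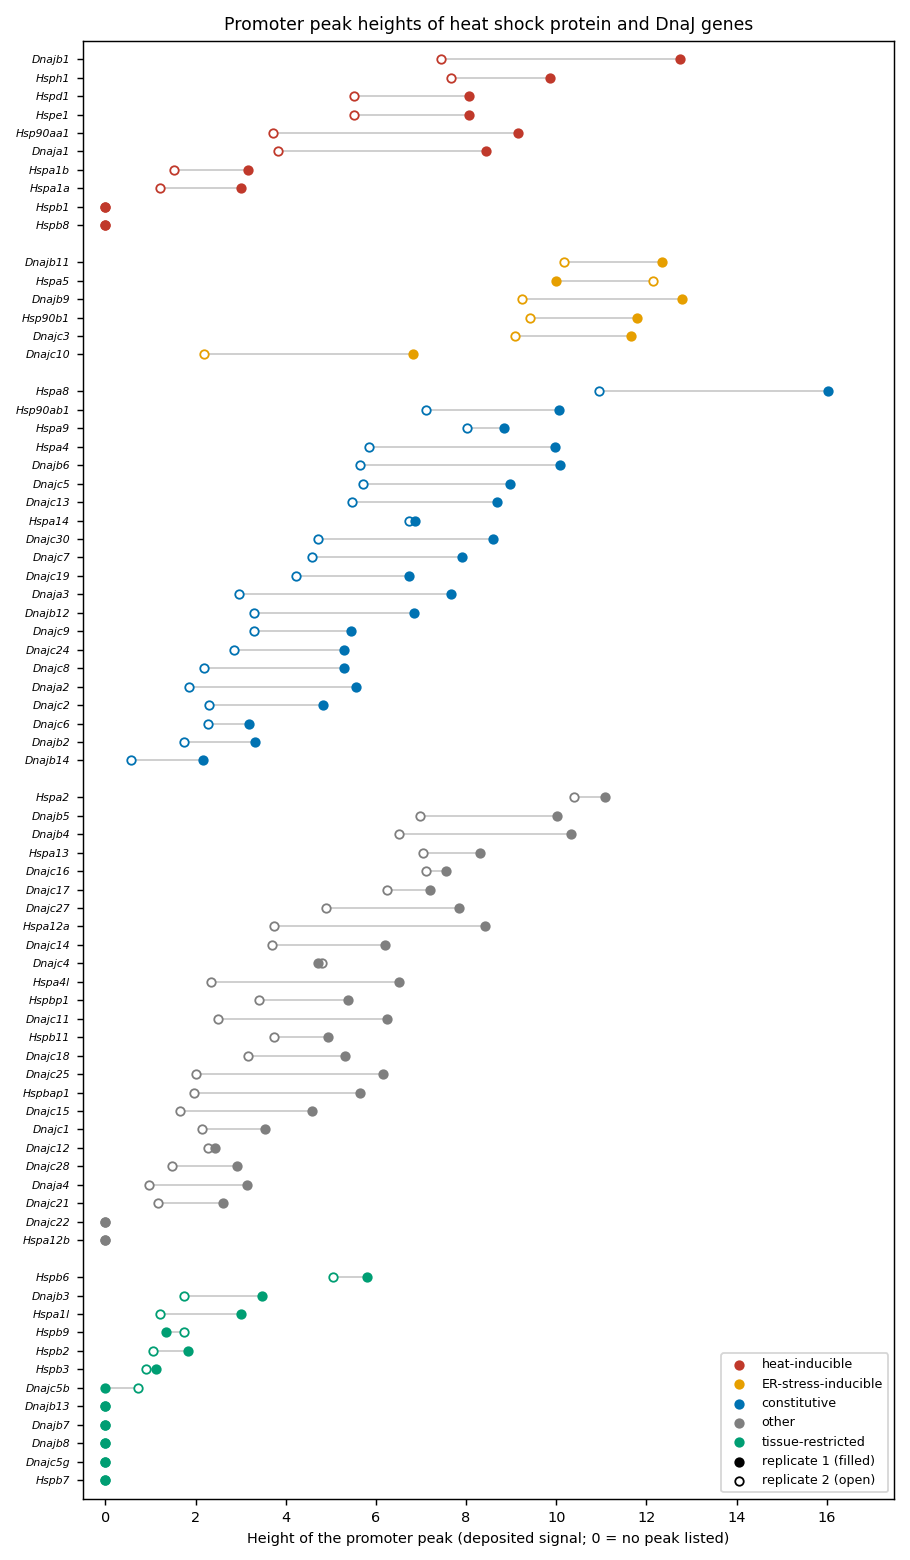
Height of the promoter peak (x axis, deposited signal) for each of the 74 members in replicate 1 (filled) and replicate 2 (open), grouped and coloured by list, with a grey line joining the mice and 0 where no peak was listed. Hspa8 lies highest in replicate 1 at 16.0, Hspa5 lies highest in replicate 2 at 12.1, and the 9 members without a peak in either mouse lie at 0, where the filled point covers the open one.

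Of the heat-inducible genes, 8 of 10 had a promoter peak in each mouse, and their heights fell into an upper and a lower set. Dnajb1, the main inducible HSP40 of the cytosol, had the highest mean, with 12.8 in replicate 1 and 7.44 in replicate 2 (10.1 ± 3.76). Hsph1, an HSP110 exchange factor, had 9.86 and 7.66 and was the highest of the list in replicate 2. Hsp90aa1, the inducible cytosolic HSP90, had 9.16 and 3.73, and its 2.46-fold difference between the mice exceeded the median ratio over coding genes. Dnaja1, a farnesylated HSP40 of the cytosol, had 8.44 and 3.82. The mitochondrial chaperonins Hspd1 (HSP60) and Hspe1 (HSP10) are read in opposite directions from 1 shared promoter, so their value of 8.07 and 5.50 is a single peak.

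The classic inducible HSP70 genes lay far lower. Hspa1b had a peak of 3.17 in replicate 1 and 1.53 in replicate 2, and Hspa1a one of 3.004 and 1.22, so both mice had them below the other 6 heat-inducible genes with a peak. In replicate 1 they stood at the 35.7th and 33.5th percentile of coding gene promoters with a peak. The genes are near copies whose starts lie 12918 bp apart, with 94.3% identity over the 300 bases before the start. Reads that fit both copies may have been dropped or split before the files were deposited, so these heights are uncertain, and how far was not tested. The Hspa1a peak also lies within 1 kb of a start of Hspa1l, a testis HSP70, which therefore has the same value.

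The remaining heat-inducible genes, the small heat shock protein genes Hspb1 (HSP25) and Hspb8, had no promoter peak in either mouse. The longer peak list, whose threshold is not given, gave them 0.531 and 0.656 in replicate 1 and none in replicate 2. Hspb1 was also the 1 member with no peak in its gene body and 10 kb in either mouse, beside 20% of all coding genes. Its start region holds the near-match to a heat shock element shown above.

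Genes induced by ER stress had the highest median promoter height of the lists in both mice. Dnajb11 (ERdj3), a soluble cochaperone of BiP in the ER, had 12.4 in replicate 1 and 10.2 in replicate 2. Hspa5, which encodes BiP, the HSP70 of the ER, had 9.99 and 12.1, and was thus higher in replicate 2. Dnajb9 (ERdj4), another BiP cochaperone, had 12.8 and 9.25. Hsp90b1 (GRP94), the HSP90 of the ER, had 11.8 and 9.41, and Dnajc3 (p58IPK), a BiP cochaperone known as an inhibitor of the kinase PERK, had 11.7 and 9.09. Of the 74 members, these 5, Hspa8 and Hspa2 were the ones above 9 in both mice. Dnajc10 (ERdj5), a disulphide reductase, stood apart with 6.81 and 2.19.

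None of the 21 constitutive genes lacked a promoter peak in either mouse. Hspa8 (HSC70), the cognate HSP70 that also strips clathrin from vesicles, had the highest mean promoter height of all members, with 16.0 in replicate 1 and 10.96 in replicate 2 (13.5 ± 3.58). It was the highest member in replicate 1, at the 99.96th percentile of coding promoters, and lay below Hspa5 in replicate 2. Hsp90ab1, the constitutive HSP90, had 10.1 and 7.12. The synaptic cochaperone gene Dnajc5, whose product is the cysteine string protein of synaptic vesicles, had 8.98 and 5.72. Dnajc6 (auxilin), the neuronal partner of Hspa8 in clathrin uncoating, was lower at 3.19 and 2.28. The lowest was Dnajb14, an ER membrane cochaperone, with 2.17 and 0.557. The list thus spanned most of the range of all members.

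Set against the constitutive genes, the heat-inducible genes did not differ in a stable direction. Their median, with 0 for genes without a peak, was 8.07 against 6.87 for constitutive genes in replicate 1, and 3.78 against 4.24 in replicate 2. Of the 10, 6 in replicate 1 and 4 in replicate 2 lay above the constitutive median. With the annotated gene start alone the heat-inducible median was lower in both mice, at 5.62 against 6.84 for constitutive genes in replicate 1 and 2.68 against 4.24 in replicate 2. Set against all members outside the inducible and tissue-restricted lists it was higher in both, at 8.07 against 6.22 for those members and 3.78 against 3.36. The share with a peak was 80% for heat-inducible genes and 100% for constitutive genes in each mouse, a difference of Hspb1 and Hspb8. For the ER-stress genes the median was 11.7 against 6.87 for constitutive genes in replicate 1, and 9.33 against 4.24 in replicate 2. Of the 6 ER-stress genes, 5 lay above the constitutive median in each mouse, and Dnajc10 lay below it in both. The lists overlapped in range, and genes are not replicates, so these are descriptions of named genes without a test.

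**Figure D2:**
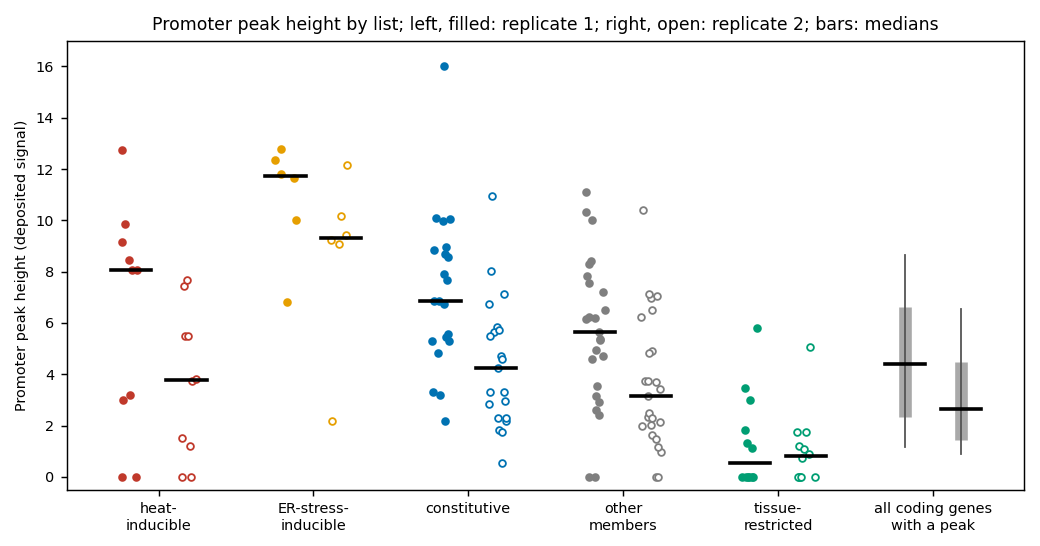
Promoter peak height (y axis, deposited signal) of each member by list, in replicate 1 (left, filled) and replicate 2 (right, open), with black bars at the medians and 0 where no peak was listed. The last column gives all coding genes that had a peak (bar 25th to 75th percentile, line 10th to 90th, black bar the median of 4.403 and 2.65). The ER-stress genes have the highest medians, 11.7 and 9.33.

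By protein family, the HSP90 genes had the highest median with genes lacking a peak at 0. For the 3 HSP90 genes it was 10.1 in replicate 1 and 7.12 in replicate 2, and for the 14 HSP70 and HSP110 genes 8.36 and 6.29, with a peak at 13 of them. The DnaJ classes lay between, at 6.61 and 2.40 for the 4 genes of class A, 6.84 and 3.30 for the 13 of class B, and 5.38 and 2.68 for the 28 of class C. The 7 small heat shock protein genes, which encode ATP-independent holdases, lay lowest, with a peak at 4 of them and a median of 1.12 and 0.901. Hspa2, an HSP70 known for its role in sperm development, had 11.1 and 10.4 and was among the 10 highest members.

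The low end held mostly testis and muscle genes. Of the 12 tissue-restricted members, 6 in replicate 1 and 7 in replicate 2 had a promoter peak, or 50% and 58.3%. Over all coding genes the shares were 63.5% and 58.4%, so in replicate 2 the list was near the share of all coding genes. Hspb6 (HSP20) was the highest of the 12 at 5.80 and 5.06, within 1 kb of a start of Proser3. The 5 lowest members with a peak in both mice were Hspb3 (1.12 and 0.901), Dnajb14, Hspb2 (1.84 and 1.07), Hspb9 (1.34 and 1.74) and Dnajc21 (2.60 and 1.17). Hspb2 encodes a muscle small heat shock protein and is read away from the neighbouring crystallin gene Cryab, whose promoter holds the same peak. The Hspb9 peak in replicate 1 lay 853.5 bp past the start site, and that of Hspb3 404.5 bp past it.

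Besides Hspb1 and Hspb8, no promoter peak was listed in either mouse for 7 members. They were the testis genes Dnajb7, Dnajb8, Dnajc5g and Dnajb13 (a component of sperm tails and cilia), the heart gene Hspb7, the endothelial HSP70 gene Hspa12b, and Dnajc22. The longer list gave Hspb7 a height of 0.918 and Dnajc22 one of 0.718 in replicate 1 alone, and gave the other 5 none. Of the endothelial markers, 1 of 5 had a promoter peak in replicate 1 and 0 of 5 in replicate 2.

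In promoter peaks, heat-inducible genes held most of the heat shock elements found among members. This search of the peaks was chosen after seeing the data. The planned window, before the annotated gene start, held an exact element at 1 of 10 heat-inducible genes. Both inducible lists were drawn from what is known of the genes, so elements of their own stress response are partly built into them. Searched on both strands in the promoter peaks of the mice merged, an exact 3-unit element (spelled out above, with overlapping matches where an array has more units) was found at 5 of the 8 heat-inducible genes with a peak and 2 of the 21 constitutive ones. The heat-inducible genes were Dnaja1, Hsp90aa1, Hspd1, Hspe1 and Hsph1, of which Hspd1 and Hspe1 share 1 element. The constitutive genes were Hspa8 and Dnajb6. None was found at the other members. Of all 13987 coding genes with a promoter peak in either mouse, 45 held one (0.322%), and 7 of these 45 were members.

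A rule with up to 1 of the 9 fixed letters changed was also chosen after seeing the data. By that rule a 3-unit element was found at 8 of 8 heat-inducible genes with a peak, which added Hspa1a, Hspa1b and Dnajb1. It was also found at 2 of 21 constitutive genes, 2 of 23 other members with a peak (Dnaja4 and Hspa4l) and 1 of 7 tissue-restricted members with one. The last was Hspa1l, which has the Hspa1a peak. Among coding genes with a peak 3.94% held such a match. The window mattered. In the 300 bases before the annotated gene start, an exact element was found at 1 of 10 heat-inducible genes (Hspe1) and 0 of 21 constitutive genes, beside 0.524% of coding genes. With up to 1 letter changed, that window held one at 4 of 10 heat-inducible and 1 of 21 constitutive genes, beside 6.83% of coding genes. Hsp90aa1, Hsph1, Dnaja1 and Hspe1 had their peak in replicate 1 nearest to another start site than the annotated gene start. In the 300 bases before the start site nearest the peak, an exact element was again found at 1 of 10 heat-inducible genes. Median width of the merged peak was 288 bp for members and 280 bp for all coding genes.

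The ER stress element, on either strand, was found in the promoter peaks of Hspa5, Hsp90b1 and Dnajc3, which are 3 of the 6 ER-stress genes, and of no other member. It was found at 19 coding genes in all, 0.136% of those with a peak. The others included Calr and Canx, the ER lectin chaperones, Xbp1, a transcription factor of the same response, and Pdia6, a disulphide isomerase. These 4 were picked after the list was seen. The list also held Adcy3, Hnrnpa3, Pan2, Pygo2, Xlr3a, Xlr3b and Zfp57, which were not picked. Ttc41 had the Hsp90b1 peak, and Alg12 and Creld2 had equal heights in both mice, so the 19 genes had fewer than 19 separate peaks. Dnajb9, Dnajb11 and Dnajc10 held no match to these letters in their peaks. Any CCAAT box, a part of that element, was found at 5 of the 6 ER-stress genes, 6 of the 8 heat-inducible and 6 of the 21 constitutive ones, beside 37.4% of coding genes with a peak.

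Footprints covered some elements and not others. At Hsp90aa1 footprints covered 13 of the 13 bases of the heat shock element in replicate 1 and 9 in replicate 2, the fullest cover among members. At the element array shared by Hspe1 and Hspd1, which lay outside the highest peak of replicate 1, they covered 15 of 18 bases in replicate 1 and 7 in replicate 2. At Dnaja1 the cover was 11 bases and 0, where the replicate 2 peak did not hold the whole element. At Hsph1, whose element lay in the peaks of both mice, it was 8 bases and 0. Of the near-matches shown above, that of Dnajb1 was covered over 0 bases in replicate 1 and 10 of 13 in replicate 2, and those of Hspa1a and Hspa1b had no footprint base in either mouse. The further near-match of Dnajb1 lay 51 to 63 bp past the start. It had no footprint base in the replicate 1 peak and lay past the end of the replicate 2 peak. At Hspa8, the constitutive gene, the first element had none in either mouse and the second, which lay in the replicate 2 peak and outside that of replicate 1, had 0 bases in replicate 1 and 3 in replicate 2.

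For ER stress elements, the distal one of Hsp90b1 was covered over 16 of 19 bases in replicate 1 and 11 in replicate 2, and the proximal one over 0 in both. That of Dnajc3 was covered over 0 bases in replicate 1 and 15 in replicate 2, and that of Hspa5 over 8 and 0, where the replicate 2 peak did not reach it. Over members, 3 of 5 exact heat shock elements inside a peak in replicate 1 and 2 of 7 in replicate 2 lay at least 50% in a footprint (each position counted once). Over all coding genes the counts were 12 of 34 and 10 of 32. A footprint over an element does not show which factor was bound.

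**Figure D3:**
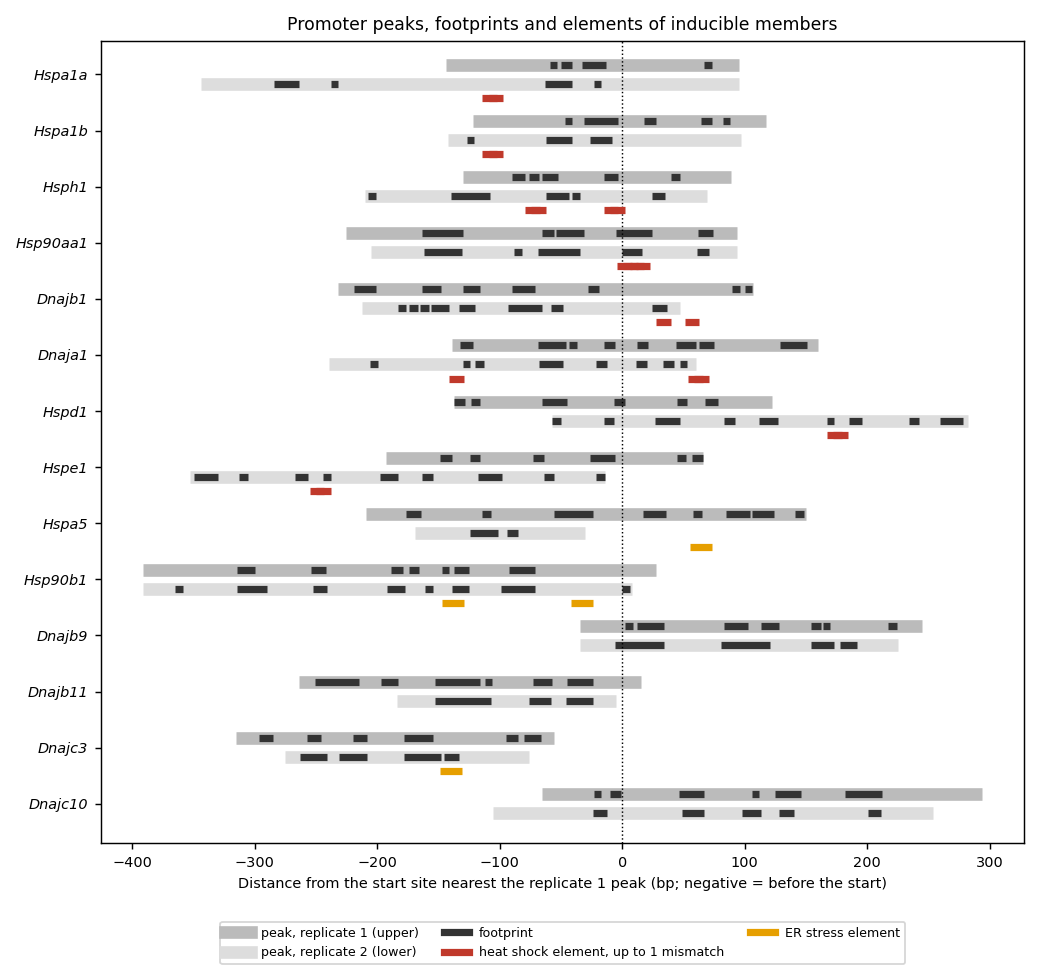
Promoter peaks of the 14 heat-inducible and ER-stress-inducible genes with a peak, by distance in bp from the start site nearest the replicate 1 peak (dotted line, negative before the start). Grey bars are the highest peak in replicate 1 (upper) and replicate 2 (lower), black marks the footprints wholly inside it, red marks heat shock elements with up to 1 letter changed and orange marks ER stress elements. Red marks occur at 8 of 8 heat-inducible genes and orange marks at 3 of 6 ER-stress genes. The rule for red marks was chosen after seeing the data.

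Most members had the higher peak in replicate 1. This held for 61 of the 64 members with a peak in both mice, or 95.3%, beside 91.1% of all coding genes. The median ratio of replicate 1 over replicate 2 was 1.67 for members and 1.65 for all coding genes. After each mouse's heights were divided by its median over coding genes with a peak in both mice, 40.6% of members were higher in replicate 1. The same share over all coding genes was not taken, so this value cannot be read as particular to the members. The 3 largest ratios were 3.89 at Dnajb14, 3.25 at Dnaja4 and 3.11 at Dnajc10. The 3 smallest were 0.768 at Hspb9, 0.823 at Hspa5 and 0.979 at Dnajc4, the members higher in replicate 2. The promoter peaks of the mice overlapped at 62 of 64 members, all but Dnajc21 and Hspb3.

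Around the genes, members had a median of 3 peaks in each mouse from 10 kb before the gene to 10 kb past it, against 2 over all coding genes, in windows with a median length of 38.6 kb for members and 37.4 kb for all coding genes. Per kb of window the medians were 0.0741 and 0.0638 peaks for members, against 0.0446 and 0.0387 for all coding genes. Hspa12a, an atypical HSP70 gene, had the most peaks shared by the mice, 10, of 14 in replicate 1 and 12 in replicate 2. Its window was 167.9 kb long, and per kb it had 0.0834 and 0.0715 peaks, beside the member medians of 0.0741 and 0.0638. Dnajc7, a cochaperone that binds both HSP70 and HSP90, and the mitochondrial Dnaja3 had 7 shared peaks each, in windows of 57.4 and 87.7 kb. Hsp90ab1 and Dnajb14 had 6 each, in windows of 25.5 and 68.9 kb. Dnajb14 thus combined the lowest constitutive promoter peak with 6 peaks in each mouse.

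Some members had many more peaks in 1 mouse. Dnajb5 had 20 in replicate 1 and 5 in replicate 2, Dnajb2 had 14 and 4, Dnajb12 had 13 and 5, and Dnajc6 had 12 and 4. These 4 were chosen after their values were seen. At Dnajb5 in replicate 1, peaks with heights of 0.450 and 0.425 overlapped each other and each was counted. The counts are thus of listed peaks and not of separate sites. Replicate 1 is also the library with the longer peak list, and the part of that in these counts was not tested.

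**Figure D4:**
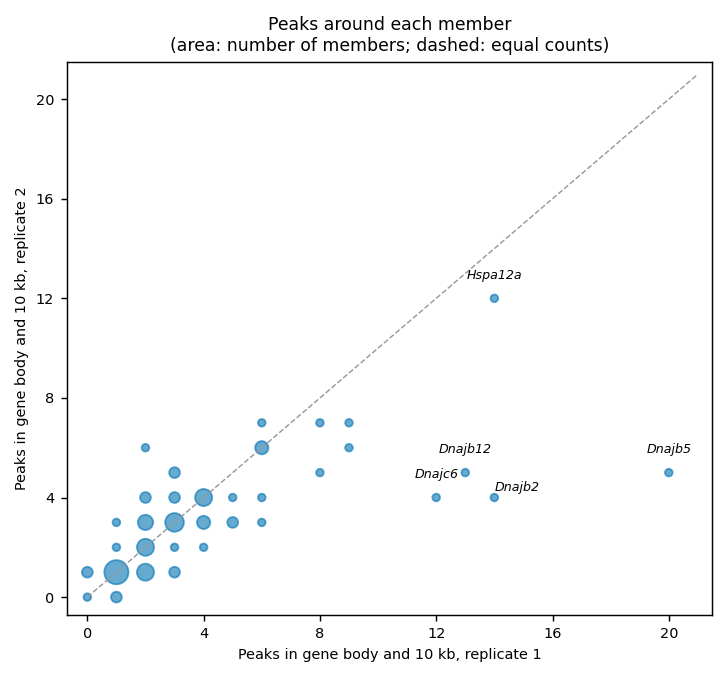
Peak counts per member, over its body and the flanking 10 kb, in replicate 1 (x axis) and replicate 2 (y axis), with point area by number of members and a dashed line at equal counts. Hspa12a lies near the line at 14 and 12, and Dnajb5 far below it at 20 and 5.

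Of the 281 peaks around members in replicate 1, counted once for each member, 117 lay at a member's own promoter, 49 at the promoter of another coding gene and 115 at neither. In replicate 2 these were 114, 45 and 67 of 226. Of the peaks at neither, 55 in each mouse overlapped a peak of the other mouse, and their median height over all such peaks was 1.08 and 1.11. Part of the motif of the insulator factor CTCF (CCA, any 2 bases, AG, any 2 bases and GGC, on either strand) was found in 17 of the 115 and 13 of the 67. Over all peaks away from coding gene starts it was found in 11.2% in replicate 1 and 13.6% in replicate 2. An exact 3-unit heat shock element was found in 0 of the 115 and 0 of the 67, beside 0.332% and 0.295% of all such peaks. Among distal peaks, chosen after their values were seen, the highest lay at -1489.5 bp from a start of Dnajc2, before it, with a height of 6.09 in replicate 1 and 2.21 in replicate 2. Next were one 20124.5 bp past a start of Dnajb12, with a height of 5.12 and 4.59, and one at -2873.5 bp from a start of Dnajb5, before it, with 4.997 and 4.18. A peak 13947.5 bp past a start of Dnajb1 had 4.48 and 3.06 and held the CTCF letters.

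The promoter was rich in CpG at 42 of 74 members, against 8623 of 21755 coding genes. All 42 members whose 300 bases before the gene start had an observed over expected CpG ratio of 0.6 or more had a promoter peak in both mice. Over all coding genes of that class the shares were 94.6% and 88.9%. Of the 11 members with a ratio under 0.3, 5 had a peak in replicate 1 and 6 in replicate 2, beside 24.2% and 21.4% of coding genes of that class. None of these member peaks lay in the 300 bases scored. Those of Hsp90aa1, Dnajc25, Dnaja4, Dnajc5b and Hspb9 lay nearest to another start site than the annotated gene start, and that of Hspb2 lay further before the start. These member shares thus do not show that the CpG-poor sequence itself was open. The same check was not made for all coding genes. Spearman's rho between CpG ratio and mean height was 0.58 over the 74 members and 0.675 over all coding genes, a description across genes of the same 2 libraries. Median CpG ratio was 0.609 for heat-inducible, 0.757 for ER-stress-inducible and 0.763 for constitutive genes. The part of CpG content in the heights was not tested.

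**Figure D5:**
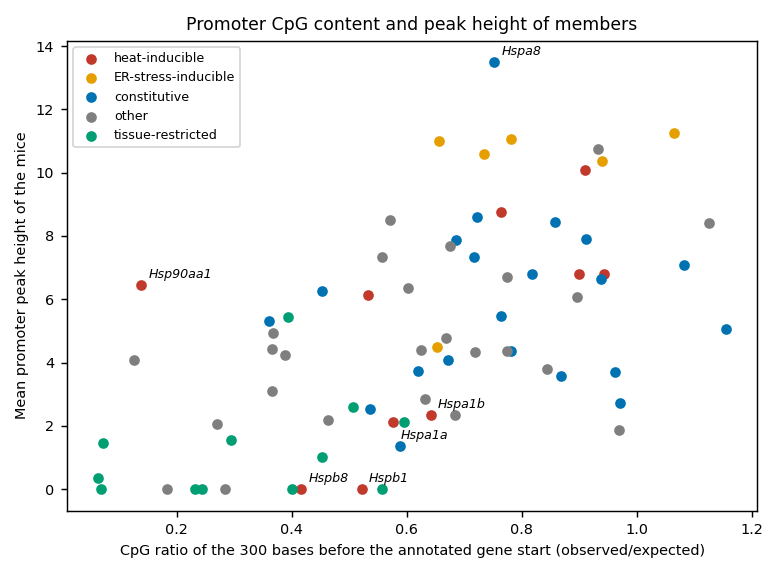
Observed over expected CpG ratio of the 300 bases before the annotated gene start (x axis) and mean promoter peak height of the mice (y axis, deposited signal, 0 where none was listed) for the 74 members, coloured by list. Members with a ratio of 0.6 or more all lie above 0, and Hsp90aa1, whose peak lies at another start site than the annotated gene start, has a ratio of 0.139 and a mean height of 6.44.

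Shared promoters were common among members. The promoter peak lay within 1 kb of a start of another coding gene at 22 of 65 members (33.8%), against 2749 of 13987 coding genes (19.7%). Apart from Hspd1 with Hspe1 and Hspa1a with Hspa1l, these pairs joined a member to a gene that was not a member. Examples are Dnajb1 with Tecr, Hsp90b1 with Ttc41 and Hspb2 with the crystallin gene Cryab. Members were set by symbol alone, so a related gene with another symbol counts as a gene that was not a member. For such pairs the height cannot be told apart between the genes.

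The partners of the chaperones, a list of 24 genes that were not members, mostly had open promoters as well. All 24 had a promoter peak in replicate 1 and 22 in replicate 2, where Bag2 and the collagen chaperone gene Serpinh1 had none, beside the 63.5% and 58.4% of all coding genes. Their median height, with 0 where none was listed, was 6.48 and 4.39. Stip1 (HOP), which links HSP70 to HSP90, had 8.88 and 9.80. Hsf1, the master factor of the heat shock response, had 6.21 and 4.23, and Hsf2 had 8.34 and 4.91. Bag3, the inducible partner of Hspb8, was low at 1.67 and 1.07, next to no promoter peak at Hspb8 itself. Exact 3-unit heat shock elements were found at 3 of the 24, Stip1, Chordc1 and Hikeshi, the HSP70 nuclear import carrier.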

How the data were processed

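DNase-seq of 2 mice (1 group, 1 library each) was used. The deposited peak lists, footprints and false discovery rates were made by the authors from the filtered alignments of each library on mm10 without pooling, per the deposited file list. The sources used here do not give the aligner, callers, thresholds or handling of CAST/EiJ alleles. The deposited peak signal (height) has no stated normalization. All distinct heights under 20 were whole multiples of 1 step within 0.02 of a step, so heights were read as depth-scaled cuts. The deposited false discovery rate list gives a q-value per run of bases, used for listed bases near starts. The deposited footprint value, a p-value threshold of 0.01 in every row, was not used, and positions were.

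Genes and their starts were taken from GENCODE M21, and sequence from RefSeq GRCm38.p6, with 1-based coordinates. The shorter peak list was the main one. A promoter peak came within 1 kb of any start of the gene. Peaks shared by the mice overlapped by at least 1 bp. No Y-linked gene was used. The members and lists were chosen with earlier results of these data known. The genes named were all inducible members, the 10 highest, the 5 lowest with a peak in both mice, those with a peak in 1 mouse or none, the 5 with most shared peaks and the 3 largest ratios in each direction. Others were named for their role, as list mates or after their values were seen. Alternatives were another peak list, a stricter threshold, other windows, starts, lists and element rules, and leaving out each mouse. Python 3.11.15, NumPy 2.4.6, SciPy 1.17.1, pandas 2.3.3 and matplotlib 3.10.9 were used, and the scripts were tested on simulated data. A height of 16.0 at Hspa8 stands for 2566 cuts, a counting error of 1.97%.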

Additional observations from a re-analysis of the deposited data

How the results depend on the processing

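Apart from leaving out a mouse, 39 values under alternatives moved by less than 1 SD over the mice, or stayed within their 95% binomial interval where no SD could be had, and 16 moved by more. That interval was taken over genes, which are not replicates, so it is only a rough yardstick. For heat-inducible genes with a heat shock element (10%) it ran from 1.79% to 40.4%. The 40% found there with 2 units, or with 1 letter changed, thus counted as unmoved. The direction of the heat-inducible median against the constitutive one in each mouse changed with the gene start alone and with the wider constitutive list, as given in the report. The share of members with a promoter peak (87.2%) was 89.9% with the longer peak list, 84.5% with the higher 50% of peaks and 83.1% with the annotated gene start alone. The share of heat-inducible genes (80%) was 90% with the longer list, 85% with a 2500 bp window and 66.7% without Hspa1a, Hspa1b, Hspd1 and Hspe1. The share of constitutive genes (100%) was 97.6% with the higher 50% of peaks, 97.6% with the gene start alone and 95.7% with all members outside the inducible and tissue-restricted lists. The share with a footprint (100%) was 99.2% with the gene start alone. The share higher in replicate 1 (95.3%) was 40.6% after division by each mouse's median. The median of 3 peaks around a member was 4 with the longer list, 1 in the gene body alone and 2 with the higher 50% of peaks. Heat-inducible genes with a heat shock element (10%) were 62.5% in the promoter peak and 100% there with 1 letter changed. The element alternatives in the promoter peak, with 1 letter changed or before the start site nearest the peak were chosen after seeing the data. The cause of the other moves was not tested. Leaving out each mouse gave the per-mouse values of the report, which with 2 mice lie within 1 SD of the mean by construction. No paired analysis was possible because the series has 1 group. A peak under the threshold of a list has no value, so a height of 0 does not show a closed promoter.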

Other observations

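Outside the family and its partners, exact 3-unit heat shock elements in promoter peaks were found at genes of several other kinds, named here after the list was seen. Among them were Cct4, a subunit of the cytosolic chaperonin TRiC, Ahcy, an enzyme of methionine metabolism, Hnrnpa2b1 and Cbx3, which share a promoter, and the histone genes Hist1h2ac and Hist1h2bc. The ER stress element was also found at Creld2, Derl3 and Ero1lb, genes of the ER that were picked in the same way from the list described above. With 0.322% and 0.136% of coding genes with a peak holding these letters, matches were few, and their use in this tissue was not tested.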
